A study of Mus musculus with 12 samples.

Results

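A set of 10 genes of glutathione synthesis and recycling was followed in mouse liver after an overdose of acetaminophen (APAP), in mice with and without Pml. The genes were Gclc, Gclm, Gss, Gsr, Gpx1, Gpx2, Gpx3, Gpx4, Ggct and Oplah. They were chosen by symbol for their place in the pathway, with earlier results of these data known. All 10 genes had a probe set that carried their symbol alone, 12 probe sets in all, and all 10 were among the 17052 tested of 18820 genes with such a probe set. A gene was tested where its mean log2 intensity over the 12 arrays was at least 5, and Gpx2, at a mean of 5.04, lay just above that limit.

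Glutathione is a peptide of glutamate, cysteine and glycine. Glutamate-cysteine ligase, made of a catalytic subunit (Gclc) and a modifier subunit (Gclm), joins glutamate to cysteine in the rate-limiting step, and glutathione synthetase (Gss) adds glycine. Glutathione peroxidases (Gpx1 to Gpx4) spend glutathione on peroxides, glutathione reductase (Gsr) returns the oxidised form with NADPH, and Ggct and Oplah, γ-glutamylcyclotransferase and 5-oxoprolinase, act in turn in the γ-glutamyl cycle that leads back to glutamate. In the liver the reactive metabolite of APAP is captured by glutathione, which an overdose depletes.

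Total RNA from livers of female BALB/cByJ mice aged 2.5 months was measured on Affymetrix Mouse Gene 1.1 ST arrays, 2 arrays in each of 6 groups. The groups were untreated mice and mice killed 2 h or 6 h after 1 intraperitoneal injection of 300 mg/kg APAP in PBS, for mice with Pml (wt) and for mice with a knockout of Pml (KO), a gene that encodes the scaffold protein of nuclear bodies. The untreated mice served as controls, and whether they received PBS, which Pml allele was made and whether each sample came from a separate animal are not given in the sources used here. Thus p-values cover only how far these samples spread, and part of that spread may be technical. In whole liver, fewer cells of a type and less RNA per cell cannot be told apart.

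Array medians lay between 79.9 and 90.1 on the linear intensity scale, and correlations between the arrays of a group lay between 0.9863 and 0.9939. The first principal component, with 49.4% of the variance, ordered untreated, 2 h and 6 h arrays, and the KO array at 6 h numbered 2 stood at 19.8, apart from the other 6 h arrays at 39.7 to 44.8. Pml itself, at log2 intensities of 8.18 and 8.46 in untreated wt and 7.10 and 7.97 in untreated KO arrays, was lower in KO by 0.70 as the mean of the 3 conditions (a log2 difference of -0.70 ± 0.14, adjusted p = 0.035 in limma). The call was lost with quantile normalization, with arrays centred on their medians and without 9 of the 12 arrays in turn (adjusted p up to 0.0994, value from -0.84 to -0.55), and the untreated KO array numbered 2, at 7.97, lay above both wt arrays at 2 h and at 6 h. The summed intensity of 10 hepatocyte markers stayed between 68120 and 79950 in every array, with Alb at log2 13.32 to 13.48. The 4 kidney and the 3 pancreas markers each summed to between 192.1 and 331.1. The 8 stomach and intestine markers went from 1743 to 2132 in untreated wt to 2926 to 3289 in wt at 2 h. The 5 fat tissue markers went from 8989 to 9430 to between 4301 and 5175 in wt at 6 h. Each sum is of linear intensities and follows its brightest genes. In the fat tissue list Car3 had a mean log2 of 12.64, and Adipoq, Plin1, Retn and Lep had means of 5.15 to 6.08. In the stomach and intestine list Fabp2 (10.21) and Lgals4 (8.25) were brightest, and the others had means of 5.225 to 6.635. The 4 bile duct markers summed to 336.1 to 359.7 in untreated wt, 726.3 to 1004 in wt at 6 h and 398.2 to 848.4 in KO at 6 h. Most of that range came from Sox9, at log2 7.08 to 9.60 over the arrays. Krt19, Krt7 and Epcam lay between 5.26 and 6.56. The summed level of 8 neutrophil markers was 456.5 to 468.8 in untreated wt, 1972 to 3575 in wt at 6 h and 506.7 to 612 in KO at 6 h. Of the 8, 6 were called higher in wt and 0 in KO, where 16.5% and 15.8% of all tested genes were. These 2 counts are not a test of a difference between the genotypes. The 3 erythroid markers, of which Alas2 was the brightest at a mean log2 of 8.96, summed to 1142 to 1863 in wt and 314.3 to 315.3 in KO at 6 h. The 8 Kupffer cell markers, of which Vsig4 was the brightest at a mean log2 of 10.61, summed to 3309 to 3651 in wt at 6 h against 4493 to 4675 untreated. Of the 8, 1 was called higher and 5 lower in wt at 6 h, and 2 higher and 4 lower in KO at 6 h. All tested genes stood at 16.5% higher and 22.0% lower in wt, and at 15.8% and 19.1% in KO. The part of these cells in the values of the 10 genes was not tested.

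RefSeq promoter entries (GRCm38.p6, 250 bases before to 50 after the start) were matched by symbol for 7 of the 10 genes: Gclm, Gss, Gpx1, Gpx2, Gpx3, Gpx4 and Ggct. They were searched on both strands for the core of the antioxidant response element bound by NRF2, TGACNNNGC, and for the AP-1 motif TGANTCA. The antioxidant core was found once in Gclm and at 2 places in Ggct, and neither motif was found in the windows of Gss, Gpx1, Gpx2, Gpx3 or Gpx4. Of the 32851 windows of that length that were searched, 12.4% held the antioxidant core and 7.81% the AP-1 motif. Counted by gene, 14.0% and 8.97% of 27025 genes had a window with the motif. Entries of a chromosome that holds none of these 7 genes were left out of both counts. The 250 bases before the start, read on the gene's strand, are shown for the genes with a match and for Gss and Gpx3, which were higher at 6 h in both genotypes and have none, with matches to the antioxidant core in capitals. Gclm is at chr3:122245307-122245556 (+), Ggct at chr6:54992868-54993117 (-), Gss at chr2:155592811-155593060 (-) and Gpx3 at chr11:54902604-54902853 (+).
Gclm: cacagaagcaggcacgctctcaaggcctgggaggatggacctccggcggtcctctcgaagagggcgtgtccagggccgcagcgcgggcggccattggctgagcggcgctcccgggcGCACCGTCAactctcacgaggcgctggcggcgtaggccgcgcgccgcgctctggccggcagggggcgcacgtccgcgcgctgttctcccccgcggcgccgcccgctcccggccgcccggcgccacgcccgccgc
Ggct: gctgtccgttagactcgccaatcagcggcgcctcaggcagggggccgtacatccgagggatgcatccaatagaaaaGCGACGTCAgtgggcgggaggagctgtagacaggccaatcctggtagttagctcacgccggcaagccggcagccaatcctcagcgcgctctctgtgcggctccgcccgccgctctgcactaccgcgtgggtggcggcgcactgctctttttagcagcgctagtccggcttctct
Gss: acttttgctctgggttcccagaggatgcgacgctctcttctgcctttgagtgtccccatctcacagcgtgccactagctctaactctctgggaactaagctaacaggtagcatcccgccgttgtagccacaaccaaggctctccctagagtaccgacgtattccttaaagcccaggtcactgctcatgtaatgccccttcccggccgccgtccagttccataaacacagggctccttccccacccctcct
Gpx3: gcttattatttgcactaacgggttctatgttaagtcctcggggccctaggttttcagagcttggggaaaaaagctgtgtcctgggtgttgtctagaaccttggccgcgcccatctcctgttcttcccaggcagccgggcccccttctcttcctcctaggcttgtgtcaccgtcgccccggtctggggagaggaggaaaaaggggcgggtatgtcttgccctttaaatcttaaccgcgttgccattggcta
The Gclm match starts 134 bases before the start site, and the Ggct match shown starts 174 bases before it. The other Ggct match, TGACGCTGC, begins at base 6 after the start. A match is a description of these letters and was not tested for binding.

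Across the 10 genes, Gclc, Gss, Gsr and Gpx3 were higher in both genotypes 6 h after APAP, and calls at 2 h went in both directions. In wt at 2 h, 2 of the 10 genes were higher and 1 was lower than untreated, where 6.53% of all tested genes were called higher and 6.17% lower. In wt at 6 h, 4 of the 10 were higher and 0 lower, against 16.5% and 22.0% of all tested genes. In KO, 3 were higher and 1 lower at 2 h, against backgrounds of 10.6% higher and 20.8% lower, and 5 were higher and 1 lower at 6 h, against 15.8% higher and 19.1% lower. Of those 5, Gpx2 was dim and passed the intensity limit with KO at 6 h as its highest group, and 4 were higher without it. The median log2 difference of the 10 genes was 0.14 in wt and 0.46 in KO at 6 h, beside -0.05 over all tested genes in each. Calls here and below mean an adjusted p under 0.05 in limma, and the comparisons at 2 h and 6 h share the untreated arrays of their genotype.

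How the KO arrays are scaled moves the all-gene background. Higher genes made up 33.9% of those called in KO at 2 h and 46.1% with arrays centred on their medians, and 45.4% against 61.4% at 6 h. Centring moved the median of all genes in KO at 6 h from -0.05 to 0.06. With that centring the KO differences at 6 h were 1.05 for Gclc, 0.75 for Gss, 0.89 for Gsr and 1.59 for Gpx3, each still called.

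**Figure D1:**
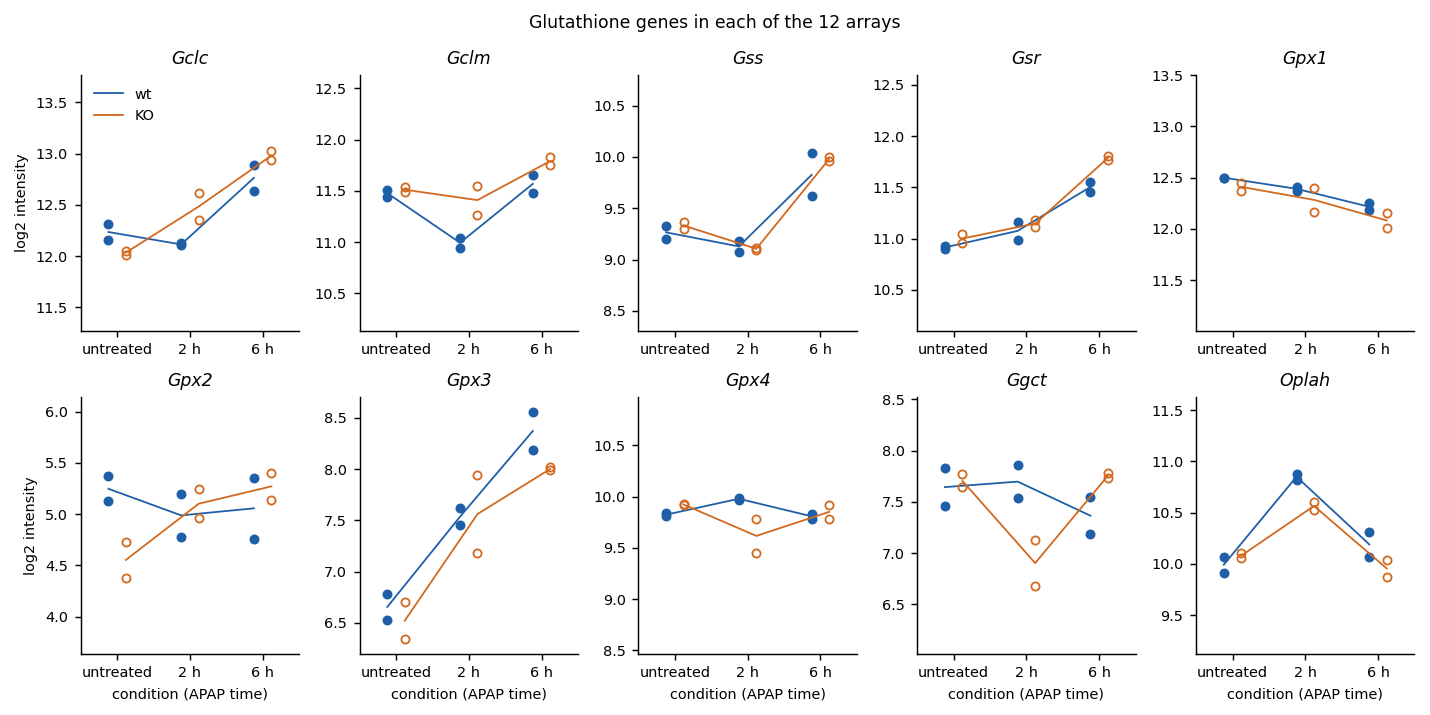
Log2 intensity of each of the 10 genes in all 12 arrays, by condition on the horizontal axis. Filled blue points are wt arrays, open orange points KO arrays, and lines join the group means; every panel spans the same height. Gclc, Gss, Gsr and Gpx3 stand higher at 6 h than untreated in both genotypes, Oplah peaks at 2 h, and Ggct dips at 2 h in KO.

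Gclc, the catalytic subunit of the rate-limiting ligase, rose in both genotypes by 6 h. Its log2 intensity was 12.32 and 12.16 in the untreated wt arrays, then 12.10 and 12.12 (2 h), then 12.64 and 12.89 (6 h). In KO it was 12.05 and 12.02 untreated, then 12.62 and 12.35 (2 h), then 12.93 and 13.03 (6 h). Both KO arrays at 2 h were above every wt array at 2 h, and no array at 6 h overlapped the untreated arrays of its genotype. The difference from untreated was 0.53 ± 0.13 in wt at 6 h (1.44-fold, adjusted p = 0.00742) and -0.12 ± 0.13 in wt at 2 h (adjusted p = 0.583). In KO it was 0.45 ± 0.13 at 2 h (1.37-fold, adjusted p = 0.0211) and 0.95 ± 0.13 at 6 h (1.93-fold, adjusted p = 0.000317). The KO response at 2 h minus that of wt was not called in limma (0.57 ± 0.18, adjusted p = 0.223). The rise from 2 h to 6 h was 0.65 in wt (adjusted p = 0.00448) and 0.50 in KO (adjusted p = 0.013).

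Some of these calls for Gclc rest on single arrays. The wt call at 6 h was lost without the untreated wt array 2 (0.45, adjusted p = 0.0661) or the wt 6 h array 2 (0.40, adjusted p = 0.0601). The KO call at 2 h was lost without the untreated KO array 1 (adjusted p = 0.0715) or 2 (0.0997), without the KO 2 h array 1 (0.137), and in a fit of the compared groups alone (0.0557). The KO step from 2 h to 6 h was lost without the KO 2 h array 2 (0.0942) or the KO 6 h array 2 (0.0706), and in the fit of the compared groups alone (0.0639). The rise of Gclc in KO at 6 h kept its call in all of them.

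Gclm, the modifier subunit, was lower at 2 h in wt. It was 11.44 and 11.51 in untreated wt, then 10.94 and 11.04 (2 h), then 11.48 and 11.65 (6 h). In KO the arrays read 11.49 and 11.53 untreated, then 11.55 and 11.27 (2 h), then 11.83 and 11.76 (6 h). The wt arrays at 2 h were the lowest of all 12 and did not overlap any others. Gclm was lower in wt at 2 h by 1.40-fold (a log2 difference of -0.48 ± 0.12, adjusted p = 0.0224) and was near its untreated level at 6 h (0.09 ± 0.12, adjusted p = 0.578). In KO the 2 h value was -0.10 ± 0.12 (adjusted p = 0.539) and the 6 h value 0.28 ± 0.12 (adjusted p = 0.0886).

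From 2 h to 6 h Gclm rose by 0.57 in wt (adjusted p = 0.00575) and by 0.38 in KO (adjusted p = 0.0307). The fall in wt at 2 h lost its call without any one of the 4 arrays compared, with adjusted p from 0.0726 to 0.144. The KO step lost it without the KO 2 h array 2 (0.24, adjusted p = 0.201), the KO 6 h array 1 (0.116) or 2 (0.0731), and in the fit of the compared groups alone (0.123). With arrays centred on their medians Gclm in KO at 6 h was called higher (0.39, adjusted p = 0.0365), as it was with an intensity trend in the variance (adjusted p = 0.0463).

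Gss, which completes the peptide, was higher at 6 h in both genotypes. Its arrays read 9.20 and 9.33 untreated, then 9.07 and 9.18 (2 h), then 9.62 and 10.03 (6 h) in wt. In KO they read 9.36 and 9.30, then 9.09 and 9.12, then 9.96 and 10.00. All 4 arrays at 6 h were above all 8 others, and the arrays at 2 h were the lowest. The difference at 6 h was 0.56 ± 0.13 in wt (1.48-fold, adjusted p = 0.00692) and 0.65 ± 0.13 in KO (1.57-fold, adjusted p = 0.00365). At 2 h Gss stood at -0.14 in wt and -0.23 in KO, neither called (adjusted p = 0.549 and 0.212). From 2 h to 6 h it rose by 0.70 in wt (adjusted p = 0.00396) and 0.87 in KO (adjusted p = 0.000957). The wt rise at 6 h was 0.35 (adjusted p = 0.0495) without the wt 6 h array 2.

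Gsr, the reductase that regenerates glutathione, was also higher at 6 h. It read 10.90 and 10.93 in untreated wt, then 10.99 and 11.16 (2 h), then 11.45 and 11.56 (6 h). The KO arrays read 11.05 and 10.95, then 11.11 and 11.18, then 11.80 and 11.77. Every array at 6 h was above every array at 2 h or untreated, and both KO arrays at 6 h were above both wt arrays at 6 h. Gsr was higher at 6 h by 0.59 ± 0.10 in wt (1.51-fold, adjusted p = 0.00111) and by 0.79 ± 0.10 in KO (1.72-fold, adjusted p = 0.000242). At 2 h it stood at 0.16 in wt and 0.15 in KO (adjusted p = 0.333 and 0.286).

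The step of Gsr from 2 h to 6 h was 0.43 in wt (adjusted p = 0.0106) and 0.64 in KO (adjusted p = 0.00113). The wt step lost its call without the wt 2 h array 1 (0.34, adjusted p = 0.0874) or the wt 6 h array 2 (0.38, adjusted p = 0.0643). Of the pairs among the 10 genes, Gclc and Gsr followed each other most closely over the 12 arrays, with a root mean square difference of 0.16 log2 after each was centred on its own mean, and Gss and Gsr followed at 0.17. Gpx1 and Gpx4, whose group means spanned only 0.42 and 0.36 log2, also stood at 0.17, and genes that vary little score close on this measure. These pairs share all arrays, so the distances are a description.

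Of the 4 peroxidases, only Gpx3 was called in both genotypes. Gpx1 and Gpx2 were called in KO at 6 h alone, and Gpx4 was called in no comparison. Gpx3, the secreted plasma peroxidase, had the widest range of the 10 genes, 1.85 log2 between its lowest and highest group mean. In wt it read 6.79 and 6.52 untreated, then 7.62 and 7.45 (2 h), then 8.56 and 8.18 (6 h). In KO it read 6.34 and 6.70, then 7.18 and 7.94, then 8.02 and 7.99. Treated arrays were above every untreated array in both genotypes, and wt arrays at 6 h were the highest. Gpx3 was higher at 2 h by 0.88 ± 0.23 in wt (1.84-fold, adjusted p = 0.0324) and 1.04 ± 0.23 in KO (2.06-fold, adjusted p = 0.00748). At 6 h it was higher by 1.72 in wt (3.28-fold, adjusted p = 0.000289) and 1.48 in KO (2.79-fold, adjusted p = 0.000807).

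From 2 h to 6 h Gpx3 rose by 0.84 in wt (adjusted p = 0.0226), and the KO step was 0.44 ± 0.23 (adjusted p = 0.172). Both 6 h calls held without any one array. The wt call at 2 h was lost without any one of its 4 arrays, with adjusted p from 0.0692 to 0.192. The KO call at 2 h was lost without the untreated KO array 1 (0.86, adjusted p = 0.058) and was 0.66 (adjusted p = 0.041) without the KO 2 h array 2. Without that same array the KO step from 2 h to 6 h was called (0.82, adjusted p = 0.019). The wt step was lost without the wt 2 h array 1 (adjusted p = 0.069) or 2 (0.116) or the wt 6 h array 1 (0.131).

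Gpx1, the abundant cytosolic peroxidase of hepatocytes, was called lower in KO at 6 h. It read 12.50 and 12.50 in untreated wt, then 12.41 and 12.37 (2 h), then 12.18 and 12.25 (6 h). In KO it read 12.45 and 12.37, then 12.17 and 12.40, then 12.15 and 12.01. Both groups at 6 h lay below their untreated arrays. Gpx1 was lower in KO at 6 h by 1.25-fold (a log2 difference of -0.33 ± 0.11, adjusted p = 0.0362), while the wt value at 6 h, -0.28 ± 0.11, had an adjusted p of 0.0579. The KO call was lost without 8 of the 12 arrays in turn (adjusted p from 0.0514 to 0.168), with arrays centred (-0.22, adjusted p = 0.147) and in the fit of the compared groups alone (0.0813). The wt value was called with a minimum mean of 7 (adjusted p = 0.0321), with 16 added to each value (0.0438), with a variance trend (0.0162) and without the KO 2 h array 1 (0.0417) or 2 (0.0415).

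Gpx2, the peroxidase best known from the gut epithelium, was dim in liver, in the lowest 0.739% of tested genes by mean. The untreated KO arrays were lowest at 4.73 and 4.38, and those at 2 h read 4.96 and 5.24, those at 6 h 5.40 and 5.14. The wt arrays read 5.37 and 5.13 untreated, then 4.78 and 5.20 (2 h), then 5.35 and 4.76 (6 h), with groups that overlapped throughout. The call for KO at 6 h (0.72 ± 0.22, adjusted p = 0.0287) is set against untreated KO arrays that both lie under 5, so no fold is given. Its highest group mean, 5.27, was that of KO at 6 h. Passing the limit of 5 thus drew on the group in which it was called. It was lost without the untreated KO array 2 (0.54, adjusted p = 0.18) or the KO 6 h array 1 (0.59, adjusted p = 0.157). It was 0.47 (adjusted p = 0.0385) with 16 added to each value before log2. The KO arrays at 6 h reached the range of the untreated wt arrays.

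Gpx4, which reduces lipid peroxides in membranes, was not called in any comparison. It read 9.81 and 9.84 in untreated wt, then 9.97 and 9.99 (2 h), then 9.79 and 9.83 (6 h). In KO it read 9.93 and 9.92, then 9.45 and 9.78, then 9.78 and 9.92. Both KO arrays at 2 h lay below their untreated arrays, by -0.31 ± 0.12 in the mean (adjusted p = 0.0717), and the array numbered 1 was the lowest of all. That value was called with a minimum mean of 7 (adjusted p = 0.0469) and without the KO 2 h array 2 (-0.47, adjusted p = 0.017), when the step to 6 h was called too (0.40, adjusted p = 0.0335). Its 2 probe sets differed by at most 0.0273 log2 over the 13 comparisons.

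Ggct, which releases 5-oxoproline from γ-glutamyl peptides, was lower in KO at 2 h. In wt it read 7.83 and 7.46 untreated, then 7.53 and 7.86 (2 h), then 7.18 and 7.55 (6 h), and these groups overlapped. In KO it read 7.64 and 7.77, then 6.68 and 7.12, then 7.73 and 7.78. The KO arrays at 2 h were the lowest of the 12, and at 6 h Ggct was back at its untreated level. It was lower in KO at 2 h by 1.74-fold (-0.80 ± 0.19, adjusted p = 0.0101) and rose by 0.85 from 2 h to 6 h (adjusted p = 0.00718). The KO fall was lost without the untreated KO array 2 (adjusted p = 0.066) or the KO 2 h array 1 (-0.58, 0.0756), and the rise without the KO 2 h array 1 (0.63, adjusted p = 0.0518).

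Oplah, which opens 5-oxoproline to glutamate, peaked at 2 h. It read 9.91 and 10.07 in untreated wt, then 10.82 and 10.88 (2 h), then 10.31 and 10.07 (6 h). In KO it read 10.10 and 10.06, then 10.60 and 10.53, then 10.04 and 9.87. The arrays at 2 h were above all others, wt higher than KO. Oplah was higher at 2 h by 0.86 ± 0.11 in wt (1.81-fold, adjusted p = 0.00121) and 0.49 ± 0.11 in KO (1.40-fold, adjusted p = 0.00992). From 2 h to 6 h it fell by 0.66 in wt (adjusted p = 0.00272) and by 0.61 in KO (adjusted p = 0.00296).

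The KO rise of Oplah at 2 h was lost without the untreated KO array 2 (adjusted p = 0.0609) or the KO 2 h array 1 (0.0523). A second Oplah probe set was dim, at a mean of 5.37 with arrays between 5.07 and 5.66, and was called in no comparison. Averaging both ended all 4 Oplah calls: 0.33 (adjusted p = 0.171) in wt and 0.11 (0.607) in KO at 2 h, and -0.25 (0.217) and -0.22 (0.272) from 2 h to 6 h.

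Between 2 h and 6 h, the same count of 5 genes higher and 1 lower was reached in each genotype. All tested genes were called higher in 10.9% and lower in 16.8% of cases in wt, and higher in 19.1% and lower in 12.6% in KO. Gclc, Gclm, Gss and Gsr rose and Oplah fell in both. The sixth gene was Gpx3 in wt and Ggct in KO.

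**Figure D2:**
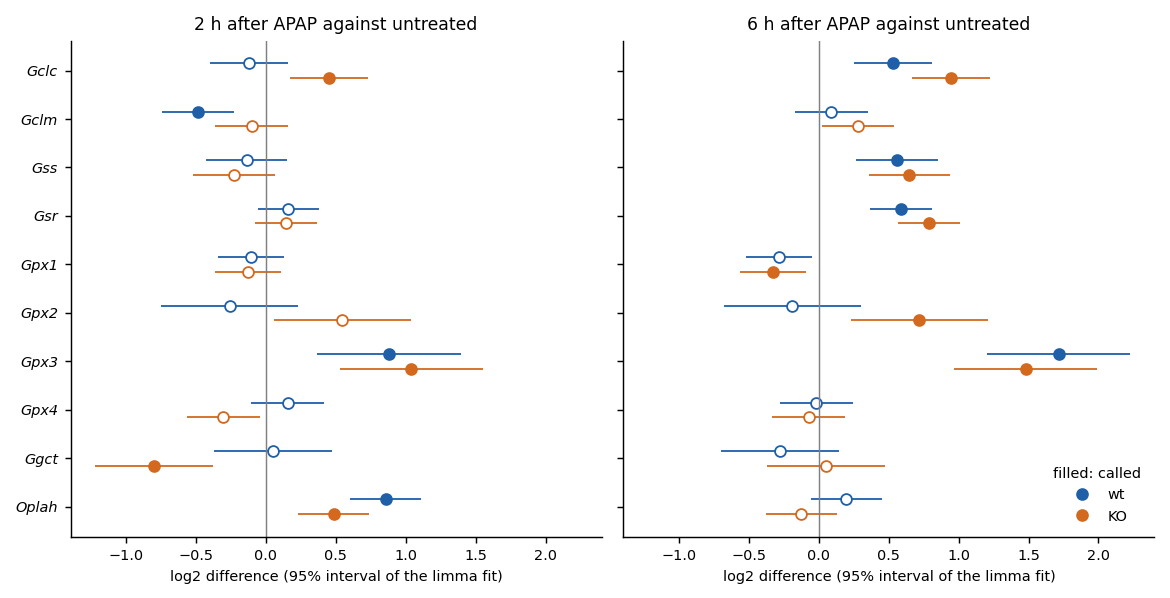
Log2 difference from untreated for each gene at 2 h (left) and 6 h (right), wt in blue and KO in orange, with the 95% interval of the limma fit; filled points were called. Gpx3 lies farthest to the right at 6 h, at 1.72 in wt and 1.48 in KO. Gclc at 2 h is called in KO (0.45) and not in wt (-0.12), and the difference between these changes was not called.

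Differences between the genotypes were then asked directly, because a call in one genotype and none in the other does not show that they differ. For KO against wt, 0 of the 10 genes were called in limma in untreated mice, at 2 h, at 6 h or as the mean of the 3 conditions. Of all tested genes, 0.00586% were called in untreated mice, 2.01% at 2 h, 9.02% at 6 h and 1.78% in the mean. At an unadjusted p under 0.05 the counts of the 10 were 1, 5, 1 and 2, where 3.87%, 23.6%, 28.2% and 19.4% of all tested genes reached it.

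At 2 h the values nearest to a call were those of Ggct, Gclm, Gpx4, Gclc and Oplah. The log2 difference was 0.42 ± 0.12 for Gclm (adjusted p = 0.0804), 0.37 ± 0.13 for Gclc (0.121), -0.79 ± 0.19 for Ggct (0.058), -0.36 ± 0.12 for Gpx4 (0.11) and -0.28 ± 0.11 for Oplah (0.17). Without the KO 2 h array 2, Gclm (0.56, adjusted p = 0.0392), Gpx4 (-0.53, 0.0361) and Ggct (-1.02, 0.0314) were called, and Gclm was then called in the mean of the 3 conditions as well (0.27, 0.0479). Ggct was also called with a minimum mean of 7 (adjusted p = 0.0494) and with the replicate number as a block (0.0487). At 6 h Gsr was the nearest, at 0.28 ± 0.10 (adjusted p = 0.0967). It was called with arrays centred (0.38, adjusted p = 0.0457) and with a variance trend (0.0483).

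In untreated mice the largest value was that of Gpx2, -0.69 ± 0.22, with an adjusted p of 1. The other 9 genes differed between untreated genotypes by -0.20 to 0.10, with 95% intervals that lay within -0.65 and 0.48. For the rise at 6 h, the KO response exceeded the wt response by 0.09 for Gss (interval -0.33 to 0.50) and 0.20 for Gsr (interval -0.12 to 0.51), and fell short of it by 0.24 for Gpx3 (interval -0.96 to 0.49). These 3 intervals include 0. The interval of Gclc, 0.02 to 0.81 around 0.42, does not, and its adjusted p was 0.281.

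The KO response minus the wt response, the interaction, was called for 0 of the 10 genes at 2 h and 0 at 6 h, where 0.0293% and 0.487% of all tested genes were called. At an unadjusted p under 0.05 there were 6 genes at 2 h and 2 at 6 h, beside 15.3% and 16.2% of all tested genes. The values at 2 h were 0.57 ± 0.18 for Gclc (adjusted p = 0.223), 0.38 ± 0.16 for Gclm (0.313), 0.81 ± 0.31 for Gpx2 (0.279), -0.46 ± 0.17 for Gpx4 (0.256), -0.86 ± 0.27 for Ggct (0.225) and -0.37 ± 0.16 for Oplah (0.316). The 2 genes at 6 h were Gclc at 0.42 ± 0.18 (adjusted p = 0.281) and Gpx2 at 0.91 ± 0.31 (0.198). A count of 2 in 10 is near the 16.2% of all tested genes. Gpx2, which is in both counts, is dim, and its untreated KO arrays, at 4.73 and 4.38, were its lowest. Between treated groups, KO against wt for Gpx2 was 0.11 at 2 h and 0.21 at 6 h, neither called.

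The change from 2 h to 6 h differed between genotypes for 1 gene of the 10, Ggct, where 7.03% of all tested genes were called. A count of 1 in 10 is near that share. Ggct went from 7.70 to 7.36 in the mean of wt and from 6.90 to 7.75 in KO, a difference between steps of 1.18 ± 0.27 (adjusted p = 0.0355). The call depends on the setting. It was lost with quantile normalization (1.07, adjusted p = 0.0506), in the fit of the compared groups alone (0.0724), and without the untreated KO array 1 (0.0542) or 2 (0.0546), the wt 2 h array 1 (0.0581) or 2 (0.14), the KO 2 h array 1 (0.0864), the wt 6 h array 1 (0.128) or the KO 6 h array 2 (0.115).

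**Figure D3:**
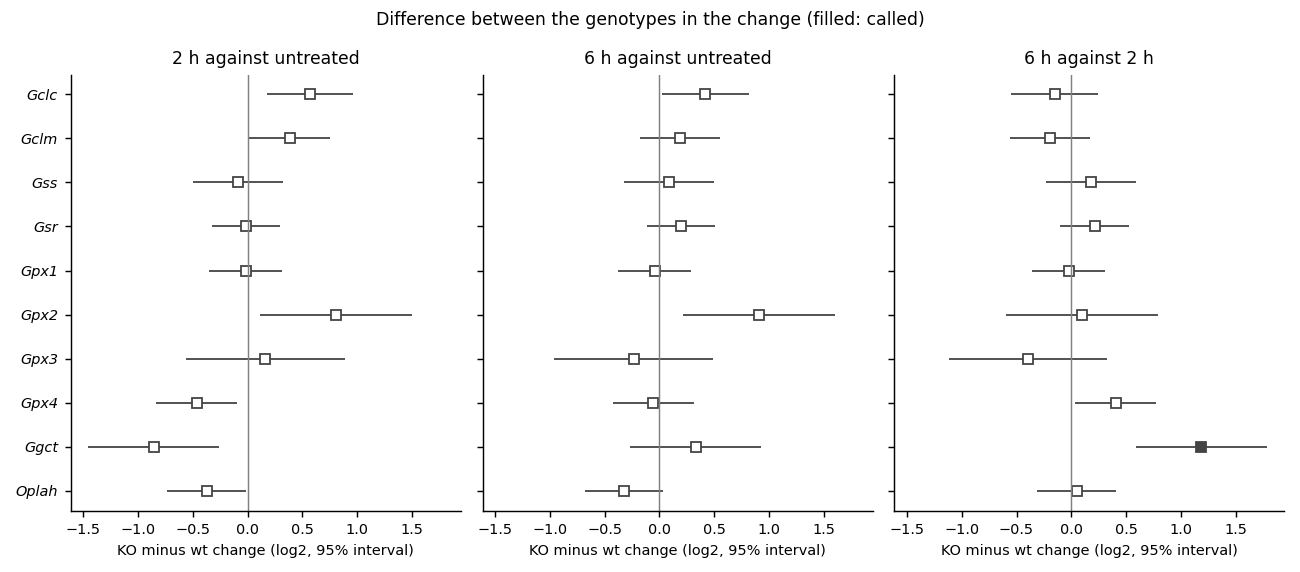
KO response minus wt response for each gene at 2 h and at 6 h against untreated, and for the step from 2 h to 6 h, as log2 differences with 95% intervals of the limma fit. The only filled point, the only call, is Ggct in the right panel at 1.18.

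Genes around the pathway were described by 10 lists of their symbols, given as counts of called genes. At 6 h, 16.5% of all tested genes were called higher and 22.0% lower in wt, and 15.8% higher and 19.1% lower in KO, with a median of -0.05 in each. Glutathione S-transferases, which attach glutathione to reactive compounds, had more genes lower than higher: 15 of 20 tested were lower and 1 was higher in wt at 6 h, and 9 were lower and 2 higher in KO at 6 h. Their median difference was -0.66 in wt and -0.38 in KO. Gstm7 (-1.33 in wt and -1.32 in KO) and Gsta3 (-0.83 and -0.84) fell in both genotypes, whereas Gstp1 rose by 1.38 in wt and 1.65 in KO. Leaving out single arrays left 10 to 15 lower in wt and 7 to 11 in KO. The 2 higher in KO became 1 without the untreated KO array 1 or the KO 6 h array 1 or 2, with a minimum mean of 7 and with the compared groups only. Summed neutrophil markers stood at 1972 to 3575 in these wt arrays and at 506.7 to 612 in these KO arrays, and their part in the counts was not tested.

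Of 16 suppliers of cysteine, 4 were higher and 5 lower in wt at 6 h, and 4 and 6 in KO, where all tested genes stood at 16.5% and 22.0% in wt and at 15.8% and 19.1% in KO. The list median was -0.17 in wt and -0.16 in KO. Slc3a2, the heavy chain of the cystine exchanger, rose by 0.95 in wt and 0.97 in KO, and Bhmt2, a methyltransferase of the methionine cycle, fell by 1.34 in wt and by 1.04 in KO. Enzymes that divert cysteine or its sulfur elsewhere were lower in 5 of 10 cases in each genotype at 6 h, with 1 higher in wt and 0 in KO and medians of -0.61 and -0.56. Suox, sulfite oxidase, fell by 1.11 in wt and by 1.38 in KO. The lower count of cysteine suppliers in wt was 3 without the untreated wt array 1 or the wt 6 h array 1.

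Peroxiredoxins, and glutathione peroxidases other than Gpx1 to Gpx4, were lower in 4 of 7 cases in wt and 3 of 7 in KO at 6 h. Of all tested genes, 22.0% and 19.1% were lower. In this list 0 and 1 were higher, with medians of -0.56 and -0.19. The 1 higher in KO was lost with no filter, with quantile normalization, with the replicate block, with the compared groups only and without any 1 of 10 arrays (all but the 2 KO arrays at 2 h). Prdx4, the peroxiredoxin of the endoplasmic reticulum, fell by 0.78 in wt and by 0.90 in KO. Among glutaredoxins and glutathione-dependent detoxification, 1 of 11 rose and 6 fell in wt and 3 rose and 4 fell in KO at 6 h, with medians of -0.34 and -0.28. Glrx, glutaredoxin, rose by 1.23 in wt and 0.65 in KO, and Hagh, the glyoxalase that releases glutathione, fell by 0.91 in wt and by 1.18 in KO. Without the untreated KO array 1 or the KO 6 h array 1 or 2, 1 gene of this list was higher in KO, and with quantile normalization, the replicate block or without either KO 2 h array, 2 were higher in wt. The lower peroxidases in KO came to 1 without the untreated KO array 2 or the KO 6 h array 1.

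Suppliers of the NADPH that Gsr uses were called higher in 3 and lower in 8 of 18 cases in wt at 6 h, and in 5 and 7 in KO, with medians of -0.10 and -0.06. All tested genes were higher in 16.5% and lower in 22.0% of cases in wt and in 15.8% and 19.1% in KO, so the 3 higher in wt are at the background. Pgd, of the pentose phosphate pathway, rose by 0.93 in wt and 1.43 in KO, Mthfd2, a mitochondrial folate enzyme, rose by 2.69 in wt and 1.74 in KO, and Mthfd1, its cytosolic relative, fell by 1.60 in wt and by 1.77 in KO. Genes of selenoprotein synthesis, on which Gpx1 to Gpx4 depend, were higher in 2 and lower in 5 of 11 cases in wt and higher in 4 and lower in 3 in KO, with medians of -0.24 and -0.08. Sephs2, which makes the selenium donor, fell by 0.95 in wt and by 1.31 in KO. Without the untreated KO array 1 or 2 or the KO 6 h array 1, 3 NADPH suppliers were higher in KO, and without the untreated wt array 2 the wt counts were 2 higher and 5 lower.

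Glutathione breakdown held 2 higher and 3 lower of 11 in wt and 2 and 4 in KO at 6 h. The shares of all tested genes were 16.5% higher and 22.0% lower in wt, and 15.8% and 19.1% in KO. The wt counts and the higher count in KO were near these shares, and the 4 lower of 11 in KO were above 19.1%. With arrays centred on their medians the KO counts turned to 4 higher and 2 lower. In KO 0 were higher without the untreated KO array 1 (2 lower) or the KO 6 h array 1 (3 lower), and 1 without the untreated KO array 2, with a minimum mean of 7 or with the mean of probe sets. Chac2, a cytosolic glutathione-degrading enzyme, fell by 1.92 in wt and by 1.49 in KO. Transporters of glutathione and its conjugates held 1 higher and 2 lower of 10 in wt and 2 and 3 in KO, beside the same shares of all tested genes. The 2 higher in KO became 1 without the untreated KO array 1 or 2 or the KO 6 h array 1 and with the compared groups only. The 1 higher in wt became 2 with quantile normalization, with centring or without either KO 2 h array, and 0 with a minimum mean of 7. Abcc4, an efflux pump, rose by 2.12 in KO at 6 h and stood at 0.28 in wt (adjusted p = 0.22), and its KO response exceeded the wt response by 1.84 ± 0.24 (adjusted p = 0.0109), a call that was lost without the untreated KO array 2 (adjusted p = 0.0538).

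Of 11 regulators around NRF2, 5 were higher and 0 lower in wt at 2 h, where 6.53% of all tested genes were higher, and 8 were higher and 1 lower in KO at 2 h, where 10.6% were higher. At 6 h, 6 were higher and 1 lower in wt and 6 and 0 in KO, where 16.5% and 15.8% of all tested genes were higher. The list median was 0.38 in wt and 0.48 in KO at 2 h (0.02 and -0.06 over all tested genes) and 0.37 and 0.36 at 6 h (-0.05 in each). Sqstm1, an adaptor that binds KEAP1, rose by 0.83 in wt and 1.32 in KO at 2 h and by 1.42 and 1.52 at 6 h, while Keap1, the inhibitor of NRF2, rose by 0.37 in wt and 0.63 in KO at 6 h. Mafk, a small MAF partner of NRF2, rose by 2.80 in wt and 1.59 in KO at 6 h. The 8 higher in KO at 2 h became 4 without the untreated KO array 2 or with the compared groups only and 5 without the KO 2 h array 1. The 5 in wt at 2 h became 3 without either untreated wt array or the wt 2 h array 1.

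**Figure D4:**
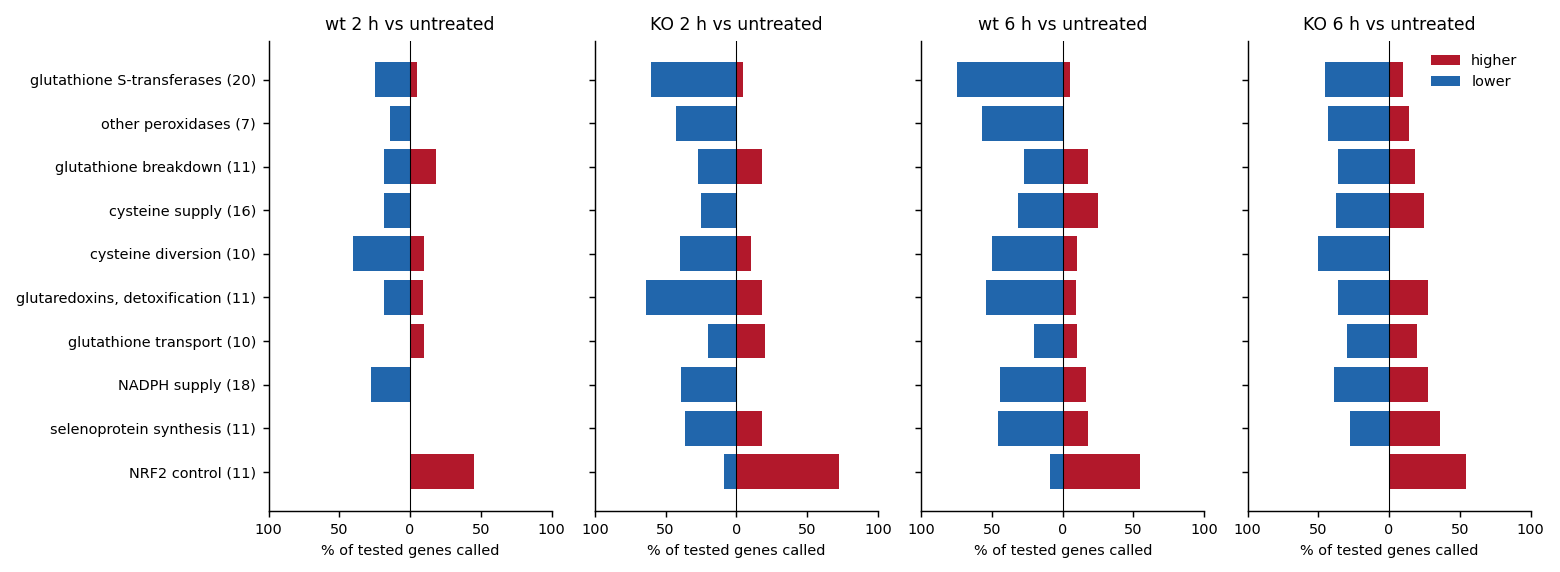
Share of the tested genes of each list that was called higher (red, to the right) or lower (blue, to the left) than untreated, in percent, for both genotypes at 2 h and 6 h; the number tested is in parentheses. Glutathione S-transferases reach farthest to the left in wt at 6 h (15 of 20), and of the regulators around NRF2 at most 1 is called lower in any panel.

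For the 4 genes with the widest range of group means, the genes nearest in pattern over the 12 arrays were found by the root mean square difference after centring each gene on its mean. Gpx3 was followed by Tm4sf4 (0.17), Pdlim7 (0.19) and Sat1 (0.21), where Gpx3 itself varied by 0.70 around its mean. Gclc, which varied by 0.35, was followed by U2af2 (0.08), Ddx52 (0.10) and Zfp513 (0.11). Oplah, which varied by 0.33, was followed by Decr1 (0.07), Mttp (0.09) and Cux1 (0.10), and Gss, which varied by 0.35, by Aimp2, Trappc4 and Rps6kc1 (each 0.08). Decr1, a β-oxidation enzyme, was higher at 2 h by 0.82 in wt and 0.36 in KO, beside 0.86 and 0.49 for Oplah. Sat1, which acetylates polyamines, was higher at 6 h by 2.22 in wt and 1.66 in KO, beside 1.72 and 1.48 for Gpx3. As these genes were picked for nearness over the same 12 arrays, similar differences follow from that choice.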

How the data were processed

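The authors processed the arrays with Affymetrix Expression Console and RMA, per the submitters' processing notes, whose versions are not given in the sources used here. Deposited values are normalised intensities on a linear scale, per the labels and the values. Log2 was taken with no pseudocount. Of 35556 probe sets, 21218 carried 1 symbol, 1881 several and 12457 none, by the platform annotation, and only the first were used. Where a gene had several (1386 genes), its brightest by mean was tested.

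Titles gave the groups, except that a source name placed 1 array (wt, 2 h) whose title is shortened. R 4.3.3 with limma 3.58.1 (lmFit, eBayes) fitted 6 group means to the 12 arrays for all 17052 genes with a mean log2 of at least 5, leaving 6 residual degrees of freedom and adding 4.33 prior ones. The 13 comparisons were two-sided, with Benjamini-Hochberg adjustment over all tested genes. Errors after ± are standard errors of the fit, and intervals are at 95%. The number of arrays limits the precision. The fit was tested on simulated data.

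The genes and lists were chosen with earlier results of these data known. The 10 genes are named throughout. Other genes named are among the up to 3 of each list with the smallest p in a comparison, among those called in it, or the 3 nearest in pattern to each of the 4 genes with the widest range. A gene so named in 1 comparison may be given in the others. Alternatives were 2 filters, 2 normalizations, 16 added to each value, the mean of probe sets, a variance trend, the compared groups only, a replicate block, and each array left out in turn. Same-numbered arrays of 2 groups deviated with correlations of -0.134 to 0.149, so the numbers were not taken as pairs. Promoter sequences are RefSeq's.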

Additional observations from a re-analysis of the deposited data

Results flagged for a closer look

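The change of Ggct from 2 h to 6 h differed between the genotypes by 1.18 log2 (KO step minus wt step, limma, adjusted p = 0.0355), by a test of that difference itself. In both KO arrays at 2 h Ggct was below all other arrays, and both wt arrays at 6 h were below both KO arrays at 6 h. The value stayed between 0.96 and 1.41 when single arrays were left out, and the call was lost without 7 of the 12 arrays in turn.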

How the results depend on the processing

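Of the 30 called values of the 10 genes, followed under 9 alternatives (269 values, since Gpx2 has none at a minimum mean of 7), 11 lost their call and none changed sign, and 10 other values gained one. Another 11 values, uncalled in both settings, changed sign. Among the counts of genes called, KO against wt at 2 h went from 0 to 1 with a minimum mean of 7 and with the replicate block. KO against wt at 6 h went from 0 to 1 with arrays centred and with a variance trend. The differing step from 2 h to 6 h went from 1 to 0 with quantile normalization and with the compared groups only. The other counts stayed within 1.5 times. The replicate block called Ggct for KO against wt at 2 h (-0.79, adjusted p = 0.0487) and changed no other call of the 10 genes. Nothing in the labels says that a replicate number pairs arrays, and the low correlations of same-numbered arrays cannot exclude it.

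Leaving out single arrays gave counts from 1 to 3 in wt and 1 to 5 in KO at 2 h, 3 to 5 in wt and 4 to 6 in KO at 6 h, 4 to 6 from 2 h to 6 h in each genotype, 0 to 3 for KO against wt at 2 h, 0 to 1 for its mean over conditions and 0 to 1 for the differing step. Where an arm kept 1 array, its spread was taken from the other groups.

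Over all tested genes, the compared groups alone gave 52 calls for KO against wt at 2 h (342 otherwise), 142 at 6 h (1538) and 95 for the differing step (1198), with fewer samples in the fit. They also gave 3101 for KO from 2 h to 6 h (5401). The replicate block gave 550 for KO against wt at 2 h, where quantile normalization gave 197 and centring 142. Quantile normalization gave 698 for the differing step, and centring gave 2357 for KO against wt at 6 h. For the mean over conditions, 304 became 201 with a minimum mean of 7, 191 with quantile normalization and 204 with centring. The interaction at 2 h ranged from 1 call (minimum mean of 7) to 23 (compared groups only) around 5, and KO against wt in untreated mice from 0 to 2 around 1. Centring arrays moved the share of higher calls for KO against wt from 20.5% to 51.4% at 2 h and from 45.4% to 71.8% at 6 h, that of the mean over conditions from 18.4% to 44.1% and that of the interaction at 6 h from 18.1% to 32.1%. Quantile normalization moved that of the differing step from 70.7% to 49.1%. Signal limits Gpx2 most, at a mean log2 of 5.04.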
